A study of Rattus norvegicus with 5 samples.

Results

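The nuclei described here were the endothelial nuclei of the ventral tegmental area (VTA), the midbrain region from which mesolimbic dopamine neurons project, in single-nucleus RNA sequencing (snRNA-seq) of 5 adult male Sprague-Dawley rats. Brains were flash-frozen, VTA punches from both sides of a brain were joined, and each of the 5 libraries was taken as 1 rat. Every library carried the treatment label saline, while the study calls the animals drug-naïve, and no other treatment, genotype or time was compared. In this droplet assay the RNA of each nucleus is counted as unique molecular identifiers (UMIs), so values are levels of nuclear RNA plus any free RNA caught in the droplet. Of 60986 barcodes with at least 600 UMIs, 35234 had more than 200 and fewer than 5000 genes and under 5% mitochondrial UMIs. Of these, 283 were chosen as endothelial, because at least 2 of the 4 genes *Cldn5*, *Flt1*, *Slco1a4* and *Adgrl4* were detected with 3 or more UMIs in sum. They also had *Mog*, a myelin gene of oligodendrocytes, under 10 UMIs per 10000, no UMI of the microglial *Cx3cr1* or of *Pdgfra*, the gene of oligodendrocyte precursors, and at most 1 UMI of *Nyap2*.

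Endothelial cells line the vessels of the brain and form the blood-brain barrier. Tight junctions seal the gaps between them, transporters in their membranes carry glucose, amino acids, thyroid hormone and iron into the tissue, and efflux pumps return drugs and other lipophilic molecules to the blood. Brain endothelium also keeps few plasma membrane vesicles, and Wnt signaling through beta-catenin is known to maintain these barrier properties, while pericytes and the end feet of astrocytes lie against its outer face.

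The 5 rats gave 28, 172, 9, 22 and 52 endothelial nuclei in the order of rats 1 to 5. These were 1.02, 0.909, 0.228, 0.423 and 1.18% of the nuclei kept in each rat, with a mean of 0.752 ± 0.407% (SD, n = 5). The exact 95% binomial intervals, which cover counting error only, ran from 0.682 to 1.48% in rat 1, 0.779 to 1.05% in rat 2, 0.104 to 0.432% in rat 3, 0.265 to 0.639% in rat 4 and 0.879 to 1.54% in rat 5. Rats 3 and 4 were thus below the intervals of the other 3 rats, and rat 2 alone held 60.8% of all endothelial nuclei. The nuclei had a median of 2502 UMIs (range 601 to 14582) and 1554 genes, against a median of 1535 UMIs in all other nuclei. Summed over nuclei, rats 1 to 5 gave 140412, 523579, 12530, 78105 and 152185 endothelial UMIs, so 1 UMI in rat 3 stood for 0.798 UMIs per 10000 and the levels of that rat were coarse.

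**Figure D1:**
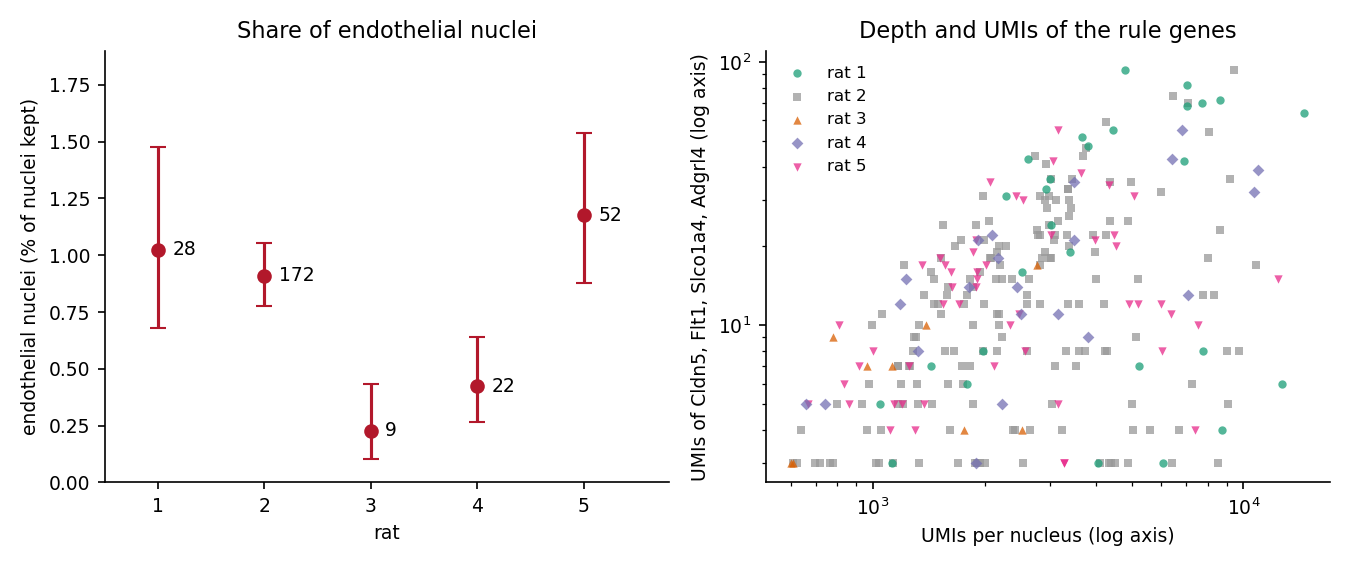
Left, endothelial nuclei as a percentage of the nuclei kept in each of 5 rats, with exact 95% binomial intervals and the number of nuclei beside each point. Right, UMIs per nucleus against summed UMIs of *Cldn5*, *Flt1*, *Slco1a4* and *Adgrl4*, 1 point per endothelial nucleus, both axes logarithmic; the shares run from 0.228 to 1.18%, and 31 nuclei sit at the lower limit of 3 UMIs.

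The values that chose the nuclei are given as a description, with no test. *Cldn5*, the main claudin of brain endothelial tight junctions, was at 5.34, 7.91, 3.99, 5.25 and 8.54 UMIs per 10000 in rats 1 to 5. *Flt1*, a receptor for vascular endothelial growth factor (VEGF), was at 39.2, 22.5, 28.7, 24.3 and 22.7 UMIs per 10000. *Slco1a4*, an organic anion transporter, averaged 11.1 ± 3.18 (SD, n = 5) and *Adgrl4*, an adhesion G protein-coupled receptor, 9.39 ± 2.63 UMIs per 10000. All 4 genes were detected in 127 nuclei, 3 of them in 92 and 2 in 64. The 4 genes summed to a median of 12 UMIs and a maximum of 93, and 31 nuclei had exactly 3. Just outside the limit lay 58 nuclei with 2 of the genes and 2 UMIs in sum, and 34 nuclei with 3 or more UMIs of a single gene. A further 90 nuclei met the marker part and were left out for other genes, 34 for *Mog*, 8 for *Cx3cr1*, 35 for *Pdgfra* and 28 for *Nyap2*, some of them for several.

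The endothelial nuclei varied widely in how concentrated these transcripts were. Grouped by summed UMIs of the 4 genes per 10000, a split chosen after values were seen and given with no test, 160 nuclei had 50 or more, 73 had 20 to 50, and 50 had fewer than 20. As every nucleus had at least 3 UMIs of the 4 genes, only deep nuclei could be sparse, so greater depth was built into this split. The 50 sparse nuclei held more UMIs, 4944 at the median, of which 4 came from the 4 genes, against medians of 2183.5 and 19 in the 160 dense nuclei. Other endothelial genes followed the same order, with *Cyyr1* at 4.78, 14.4 and 32.1 and *Emcn* at 0.556, 2.68 and 5.93 UMIs per 10000 from the sparse to the dense nuclei. Summed astrocyte markers ran the other way, at 40.9, 22.9 and 13.9 UMIs per 10000, as did neuronal markers at 25.0, 17.1 and 12.6. Summed mural markers did not follow the order, at 15.3, 20.03 and 17.8 UMIs per 10000. Whether the sparse nuclei held RNA of several cells was not tested.

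The libraries held 10193355 to 88576210 UMIs over all barcodes, and the nuclei kept per rat numbered 2733 to 18927. Between 2 and 27 barcodes of nuclei occurred in both libraries of a pair, and no endothelial barcode was found in another library. Scrublet marked 3 of 35234 nuclei as doublets, too few for the caller to have worked, and 5 endothelial nuclei were among the 5% with the highest doublet scores of their library. Free RNA could make up at most 56.4, 55.8, 19.9, 22.6 and 53.0% of the endothelial UMIs in rats 1 to 5, an upper limit set by neuronal markers in the endothelial nuclei relative to barcodes under 100 UMIs. Where subtraction of free RNA is given below, this upper limit was removed in each rat, from the sums of all groups alike.

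Each rat's endothelial UMIs were summed and compared with the sum over all of its other nuclei, with the rat as a block, which asked which genes set endothelial nuclei apart from the rest of the VTA. Of 12268 genes tested, 1449 (11.8%) were higher and 1263 (10.3%) lower in endothelial nuclei (edgeR quasi-likelihood test, Benjamini-Hochberg adjusted p under 0.05). The balance depended on the scaling, with 982 higher and 1653 lower when scaling factors used all genes, which shifted the median log2 fold change of all genes from 0.001 to -0.245. With DESeq2 size factors, 1111 were higher and 1734 lower, at a median of -0.202. Without rat 2, which held most of the nuclei, 830 were higher and 913 lower. The 8 genes of the rule and the mitochondrial genes were given no test. A gene could pass the filter on low counts through the endothelial sums alone and then had to differ, so counts of tested genes in the lists below are descriptions and are given beside the counts with no filter. With no filter 1744 of 24437 genes (7.14%) were higher and 1191 (4.87%) lower, at a median log2 fold change of -0.48.

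Classical endothelial genes were far higher in the chosen nuclei than elsewhere. *Emcn*, the endothelial sialomucin endomucin (ENSRNOG00000022910), was at 4.13, 3.06, 5.59, 4.99 and 4.01 UMIs per 10000 in rats 1 to 5, against 0.00524 to 0.0334 in the other nuclei (log2 fold change 7.92, SE 0.31, adjusted p = 7.7e-135). The lowest endothelial value of *Emcn* was therefore far above the highest value of the rest. *Cyyr1* (ENSRNOG00000001544), a small transmembrane protein gene, was at 20.3, 19.0, 25.5, 28.4 and 17.9 UMIs per 10000 against 0.0656 to 0.175 (log2 fold change 7.59, SE 0.34, adjusted p = 1.7e-108). *Adgrf5*, an adhesion receptor of vascular endothelium, was at 7.91, 6.55, 7.98, 17.9 and 8.61 UMIs per 10000, with rat 4 well above the others and each rat above the other nuclei (log2 fold change 7.15, SE 0.33, adjusted p = 1.8e-100). The angiopoietin receptor partners *Tie1* and *Tek* and the receptor phosphatase *Ptprb* that opposes them were also higher, with log2 fold changes of 6.42, 5.42 and 6.17. VE-cadherin, *Cdh5*, the adherens junction protein of all endothelium, was at 1.07, 0.745, 1.6, 0.384 and 0.986 UMIs per 10000 (log2 fold change 4.59, SE 0.37, adjusted p = 9.9e-33). Of 20 identity genes listed, 19 were in the files, 13 passed the filter and all 13 were higher, with a median log2 fold change of 6.17. With no filter all 19 were called higher, *Robo4* among them from a single UMI, at 0.142, 0, 0, 0 and 0 UMIs per 10000.

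Shares of nuclei with a UMI gave the same contrast at the level of single nuclei. *Cyyr1* was detected in 216 of 283 endothelial nuclei, or 76.3% (exact 95% interval 70.9 to 81.2%), against 1.44% of all other nuclei and 1.55% of astrocyte-like nuclei. With every nucleus thinned to 600 UMIs these shares were 57.2% of endothelial and 0.612% of other nuclei. The interval of *Cyyr1* pools the nuclei of 5 rats, 60.8% of them from rat 2. It covers counting error only, not the spread between rats. *Emcn* was detected in 49.5% of endothelial nuclei against 0.343% of the others, and after thinning in 22.3% against 0.112%.

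Several transcription factors of the endothelium were higher. *Lef1*, a nuclear effector of Wnt signaling, was at 13.9, 7.96, 10.4, 10.4 and 6.97 UMIs per 10000 in rats 1 to 5 and at 0.0540 to 0.0837 in the other nuclei (log2 fold change 7.17, SE 0.32, adjusted p = 7.8e-105). *Epas1*, which encodes the hypoxia-inducible factor HIF-2α and is rich in endothelium, was at 9.40, 8.88, 12, 18.1 and 10.6 UMIs per 10000 (log2 fold change 4.70, SE 0.29, adjusted p = 3.9e-55). Of the ETS family, *Fli1* averaged 3.52 ± 0.838 (SD, n = 5) and *Ets1* 2.32 ± 1.10 UMIs per 10000, with log2 fold changes of 4.62 and 4.24. *Erg*, the ETS factor that maintains endothelial identity, was at 3.13, 2.08, 0, 4.61 and 3.48 UMIs per 10000 and did not pass the filter because of the 0 in rat 3, where a level below 2.39 could not be told from 0. *Sox17*, an arterial and barrier factor, was at 1.07, 1.49, 1.6, 2.05 and 1.71 (log2 fold change 6.76, SE 0.33, adjusted p = 1.4e-90), and the forkhead factors *Foxf1* and *Foxc1* had log2 fold changes of 7.30 and 6.22 at means of 0.366 ± 0.255 and 0.75 ± 0.592 UMIs per 10000. Among genes outside the lists, *Zfp366*, a zinc finger repressor, was at 7.55, 2.75, 1.6, 4.74 and 6.05 and *Mecom*, a zinc finger regulator of arterial endothelium, at 1.28, 1.17, 1.6, 2.43 and 1.58 UMIs per 10000, with log2 fold changes of 7.47 and 7.33. Of 26 factors listed, 17 were tested and all 17 were higher, with a median log2 fold change of 4.62. With no filter 24 of 25 were called higher.

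ETS factors, 3 of which are described above, bind a GGAA core, and of 7 promoters of raised genes that were read, the 4 that held GGAAG on either strand are shown. Those of *Lef1*, *Cyyr1* and *Slc2a1* held none. Each line gives the 250 bases before the start of the RefSeq gene in GRCr8 from 5′ to 3′ on the strand of the gene, with GGAAG or its complement CTTCC in capitals. *Emcn* lies on the forward strand (chr2:228564289-228564538), *Tie1* on the reverse (chr5:137304982-137305231), *Erg* on the reverse (chr11:48251567-48251816) and *Abcg2* on the forward strand (chr4:89075224-89075473).
*Emcn*: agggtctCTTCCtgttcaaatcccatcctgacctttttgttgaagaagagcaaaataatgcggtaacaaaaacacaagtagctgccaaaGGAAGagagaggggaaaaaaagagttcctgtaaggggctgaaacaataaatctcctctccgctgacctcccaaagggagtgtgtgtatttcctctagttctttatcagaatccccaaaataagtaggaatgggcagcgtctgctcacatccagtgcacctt
*Tie1*: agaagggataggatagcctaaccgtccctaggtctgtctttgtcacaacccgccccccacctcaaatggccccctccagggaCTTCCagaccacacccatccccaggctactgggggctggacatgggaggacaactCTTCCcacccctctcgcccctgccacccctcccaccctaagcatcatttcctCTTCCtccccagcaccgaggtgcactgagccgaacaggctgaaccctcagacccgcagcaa
*Erg*: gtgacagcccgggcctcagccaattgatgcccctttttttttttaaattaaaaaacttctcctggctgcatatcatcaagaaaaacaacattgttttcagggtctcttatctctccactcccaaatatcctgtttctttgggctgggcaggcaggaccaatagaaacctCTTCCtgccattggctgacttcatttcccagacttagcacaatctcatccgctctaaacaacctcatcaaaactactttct
*Abcg2*: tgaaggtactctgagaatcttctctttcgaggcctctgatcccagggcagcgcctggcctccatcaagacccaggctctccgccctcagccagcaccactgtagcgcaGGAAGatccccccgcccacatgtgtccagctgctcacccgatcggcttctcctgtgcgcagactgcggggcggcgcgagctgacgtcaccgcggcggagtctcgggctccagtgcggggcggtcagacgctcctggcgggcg
The matches began 243 and 161 bases before the start in *Emcn*, 168, 113 and 61 in *Tie1*, 81 in *Erg* and 142 in *Abcg2*. Such a match was common, since 63.3% of the 33469 promoters in the table held GGAAG on either strand. Of the 20 genes named as most raised, 16 had a promoter in the table and 9 of these (56.25%) held it, and of the 30 raised identity and transcription factor genes 19 had one and 13 (68.4%) held it. The SOX letters AACAAT were in 5 of the 16 (31.25%) against 10.3% of all promoters, and the GATA letters AGATAA in 0 of the 16 against 10.3%. Of the 19, the SOX letters were in 4 (21.1%) and the GATA letters in 1 (5.26%). These counts are descriptions of short windows and say nothing of binding.

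Tight junction genes were raised in part. *Ocln*, the tight junction protein occludin, was at 2.92, 1.83, 5.59, 3.07 and 1.91 UMIs per 10000 in rats 1 to 5 against 0.0408 to 0.247 elsewhere (log2 fold change 5.20, SE 0.28, adjusted p = 2.3e-75). *Cgnl1*, the junction linker paracingulin, was at 2.99, 2.14, 1.6, 4.23 and 2.96 (log2 fold change 5.25, SE 0.28, adjusted p = 4.6e-77). No rat overlapped with the other nuclei for *Ocln*, and for *Cgnl1* rat 3 had 2 UMIs, under the floor of 3 counts, while the other 4 rats lay above the other nuclei. The tricellular junction genes *Lsr* and *Marveld2* had log2 fold changes of 2.85 and 3.35, and the adhesion molecules *Jam2* and *F11r* of 2.76 and 3.59. *Tjp1*, the scaffold ZO-1, was only modestly higher, at 4.27, 3.59, 7.98, 4.23 and 5.13 against 1.34 to 3.01 UMIs per 10000 (log2 fold change 1.34, SE 0.26, adjusted p = 3.7e-06). In the 140 nuclei without a UMI of a mural (pericyte or smooth muscle) marker, *Tjp1* (adjusted p = 0.36) and *F11r* (adjusted p = 0.082) did not pass. *Jam3* was lower, at 0.934 ± 0.112 against 1.68 UMIs per 10000 (log2 fold change -0.84, SE 0.29, adjusted p = 0.021). Without rat 1, 2, 4 or 5 the adjusted p of *Jam3* was 0.15, 0.065, 0.070 or 0.065. Without the rat block it was 0.17. Polarity and scaffold genes that other brain cells share did not pass the test, such as *Pard3* at 3.54 ± 0.756 against 3.51 and *Afdn* at 2.65 ± 0.723 against 1.89 UMIs per 10000. *Cldn1* and *Cldn3* had 0 UMIs in 283 nuclei, which allows a share of nuclei with a UMI of up to 1.06% (3 of 283). Of 25 genes listed, 20 were tested, 13 were higher and 1 was lower, with 14 and 1 of 25 when no filter was applied.

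Carriers of the blood-brain barrier were among the most raised genes of the whole table. *Slco1c1* (ENSRNOG00000009740), which carries thyroxine into the brain, was at 14.7, 12.7, 16, 14.2 and 12.2 UMIs per 10000 in rats 1 to 5. Its mean was 13.9 ± 1.53 (SD, n = 5), against 0.0384 to 0.243 elsewhere (log2 fold change 7.11, SE 0.33, adjusted p = 1.1e-101). It was detected in 73.5% of endothelial, 2.34% of other and 7.73% of astrocyte-like nuclei, and after thinning in 47.0% of endothelial and 0.933% of other nuclei. *Slc2a1*, the glucose transporter GLUT1, was at 6.05, 4.37, 1.6, 7.94 and 4.53 against 0.103 to 0.487 UMIs per 10000 (log2 fold change 3.95, SE 0.28, adjusted p = 2.5e-42). Rat 3 was the lowest of the endothelial values, at 2 UMIs, which is under the 3 counts taken as the floor. The share of nuclei with *Slc2a1* was 64.0% against 8.11% of other and 13.2% of astrocyte-like nuclei, and 25.1% against 2.50% after thinning.

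Amino acid and iron uptake showed the same direction. *Slc7a1*, a carrier of cationic amino acids, was at 12.2, 7.81, 4.79, 10.6 and 8.48 UMIs per 10000 (log2 fold change 4.82, SE 0.30, adjusted p = 2e-56), and *Slc7a5*, the large neutral amino acid transporter LAT1, at 3.42, 3.07, 1.6, 3.33 and 5.52 (log2 fold change 4.78, SE 0.28, adjusted p = 3.6e-62). The gene of its heavy chain, *Slc3a2*, was less different, at 1.74 ± 0.674 against 0.539 UMIs per 10000 (log2 fold change 1.69), and did not pass in the nuclei without a mural UMI (adjusted p = 0.25). *Tfrc*, the transferrin receptor, was at 6.05, 6.05, 25.5, 4.87 and 5.65 UMIs per 10000, with the 9 nuclei of rat 3 far above the rest (log2 fold change 4.08, SE 0.27, adjusted p = 4.4e-49). *Slc22a8*, an organic anion exporter, and the thiamine transporter *Slc19a3* had log2 fold changes of 6.38 and 7.64, the latter from 24 UMIs. *Mfsd2a*, the lysophosphatidylcholine carrier that limits vesicle transport, was at 1.5, 0.898, 5.59, 0.640 and 1.25 UMIs per 10000, again with rat 3 the highest (log2 fold change 1.97, SE 0.28, adjusted p = 4.1e-11). *Slc16a1*, the lactate carrier MCT1, averaged 0.562 ± 0.593 against 0.284 (log2 fold change 0.25, SE 0.37, adjusted p = 0.72), and the sodium-potassium-chloride carrier *Slc12a2* 3.40 ± 1.69 against 4.44 (log2 fold change -0.58, SE 0.27, adjusted p = 0.12). Neither passed the test. Of 30 carriers and receptors listed, 25 were tested, 17 were higher and none lower, and with no filter 20 of 30 were higher.

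Only 3 of 8 efflux pump genes tested were higher, with and without the filter, and none was lower. *Abcg2*, the breast cancer resistance protein, was at 4.77, 4.62, 7.18, 4.74 and 6.05 against 0.0113 to 0.0952 UMIs per 10000 (log2 fold change 6.89, SE 0.31, adjusted p = 1.1e-106), with no overlap between groups. *Abcc4* was at 4.63, 4.62, 9.58, 6.79 and 6.44 (log2 fold change 4.49, SE 0.28, adjusted p = 1.8e-56) and *Abcc6* at 1.21, 1.15, 0.798, 1.02 and 0.920 UMIs per 10000 (log2 fold change 6.34, SE 0.39, adjusted p = 2.8e-58). The remaining 5 genes did not pass, for example *Abcc1* at 0.688 ± 0.308 against 0.815 and *Abcc5* at 1.9 ± 0.290 against 2.81 UMIs per 10000. P-glycoprotein could not be described, since neither *Abcb1a* nor *Abcb1b* was matched among the gene names used here.

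**Figure D2:**
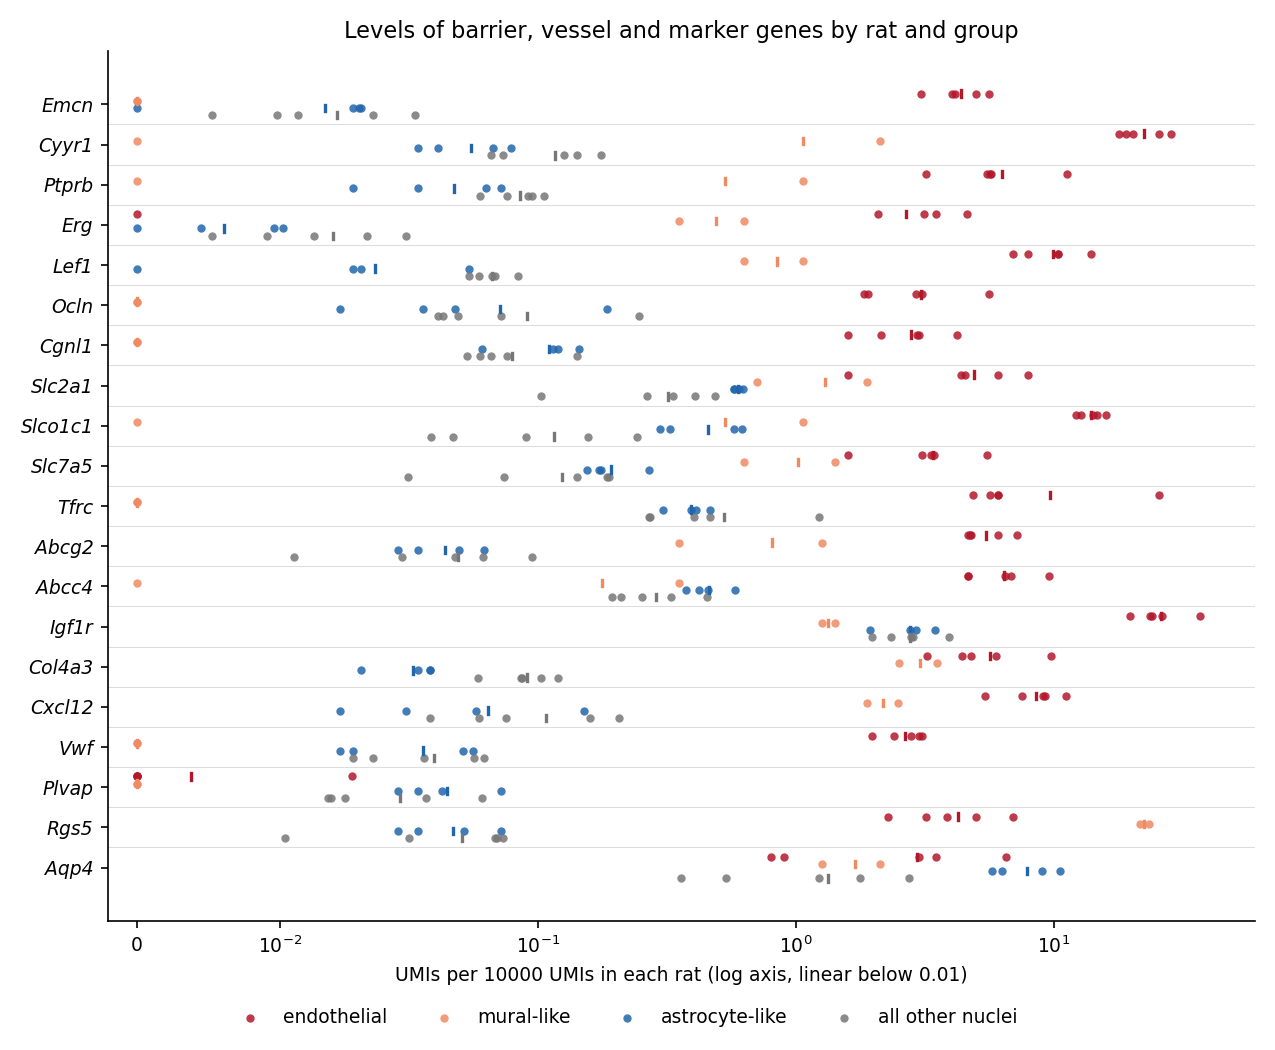
Levels of 20 genes in UMIs per 10000 (logarithmic axis, linear below 0.01), 1 point per rat for endothelial nuclei and all other nuclei (5 rats), mural-like nuclei (rats 2 and 5) and astrocyte-like nuclei (rats 1, 2, 4 and 5); short lines are means. Barrier carriers such as *Slco1c1* (12.2 to 16 in endothelial nuclei) lie above every other group, and *Plvap* is near 0. *Rgs5* is highest in mural-like nuclei, which were chosen in part by this gene.

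Genes of the VEGF, angiopoietin and Notch pathways were raised in part. *Kdr*, the main VEGF receptor, was at 1.64, 1.89, 5.59, 0.896 and 1.05 UMIs per 10000 (log2 fold change 4.90, SE 0.31, adjusted p = 6.9e-55), and its co-receptor *Nrp1* at 2.56, 3.67, 4.79, 3.46 and 2.63 (log2 fold change 2.23, SE 0.26, adjusted p = 2.6e-16). *Nrp2*, the co-receptor of lymphatic and venous vessels, was lower (log2 fold change -1.50, SE 0.36, adjusted p = 0.00026), and *Vegfa*, which glia and neurons secrete, averaged 0.391 ± 0.256 against 1.54 UMIs per 10000 (log2 fold change -1.38, SE 0.35, adjusted p = 0.00065). The call of *Vegfa* was lost in the nuclei without a mural UMI (log2 fold change -1.49, adjusted p = 0.072). It was also lost without the 195 nuclei holding 3 or more UMIs of astrocyte, mural, microglial or fibroblast markers (log2 fold change -2.15, adjusted p = 0.10). That left 88 of 283 nuclei, with 6 in rat 1 and 2 in rat 3. The call of *Nrp2* was lost without the rat block (log2 fold change -1.34, adjusted p = 0.13) and after subtraction of free RNA (log2 fold change -2.62, adjusted p = 0.060). The vascular endothelial ligand *Vegfc* was higher (log2 fold change 4.11, SE 0.34, adjusted p = 3e-31). Of 15 genes of these pathways 12 were tested, 7 were higher and 2 lower, and with no filter 8 and 2 of 15. In the Notch list 7 of 11 tested genes were higher and none lower (10 of 15 with no filter), among them *Notch4*, an endothelial Notch receptor, with a log2 fold change of 4.69, *Notch1* with 2.72 and the ligand *Jag2* with 2.07. The 15 Notch genes summed to 7.37 and 6.83 UMIs per 10000 in endothelial nuclei of rats 2 and 5, and to 6.72 and 11.9 in mural-like nuclei of those rats. *Jag2* did not pass after subtraction of free RNA (log2 fold change 3.41, adjusted p = 0.051) or in the nuclei without a mural UMI (log2 fold change 1.01, adjusted p = 0.17). *Jag1* rested largely on rat 3, at 0.142, 0.382, 8.78, 0.512 and 0.394 UMIs per 10000 (log2 fold change 3.16, SE 0.37, adjusted p = 2.9e-16). It did not pass without the rat block (adjusted p = 0.23), and in the nuclei without a mural UMI its log2 fold change was -0.070.

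Wnt and bone morphogenetic protein (BMP) genes were raised in part. Beside *Lef1*, the receptor *Fzd6* was at 1.28, 0.649, 3.19, 1.02 and 0.526 UMIs per 10000 (log2 fold change 5.83, SE 0.40, adjusted p = 7.9e-47), and *Fzd4*, the receptor for norrin, averaged 0.275 ± 0.243 (log2 fold change 3.82). The feedback inhibitors *Apcdd1*, *Notum* and *Axin2*, known Wnt target genes, had log2 fold changes of 4.90, 6.33 and 1.94. However, *Axin2* did not pass in the nuclei without a mural UMI (log2 fold change 0.26, adjusted p = 0.83) or without nuclei holding markers of another type (log2 fold change 1.88, adjusted p = 0.096). In total 11 of 16 Wnt genes tested were higher and none lower (12 of 17 with no filter). *Id1*, an early BMP target, was at 2.28, 1.81, 1.6, 2.05 and 1.91 against 0.00524 to 0.0660 UMIs per 10000 (log2 fold change 5.87, SE 0.30, adjusted p = 1.8e-80), and *Eng*, the BMP co-receptor endoglin, at 3.99, 3.0, 5.59, 3.71 and 1.51 (log2 fold change 6.35, SE 0.29, adjusted p = 4.3e-101). *Id3* had a log2 fold change of 2.85, *Bmpr2* of 1.87 and *Tgfbr2* of 2.19, while the signal carrier *Smad1* did not pass (log2 fold change 0.58, SE 0.29, adjusted p = 0.14). *Bmpr2* was at 23.9 UMIs per 10000 in rat 3 against 5.65 to 7.83 in the other rats, and did not pass without the rat block (adjusted p = 0.086). Of the BMP and TGF-beta list, 9 of 17 tested genes were higher and none lower (11 of 19 with no filter).

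Genes of vascular tone, clotting and immune traffic were raised in part. *Vwf*, von Willebrand factor, was at 2.99, 2.79, 2.39, 3.07 and 1.97 UMIs per 10000 (log2 fold change 6.02, SE 0.29, adjusted p = 9e-92), and *Nos3*, the endothelial nitric oxide synthase, at 1.99, 1.34, 0.798, 1.15 and 1.38 (log2 fold change 4.79, SE 0.31, adjusted p = 4.1e-53). The clotting regulators *Tfpi* and *Plat* had log2 fold changes of 1.91 and 3.81, and 6 of 9 genes tested in that list were higher (9 of 14 with no filter). *Cxcl12*, a chemokine that brain endothelium displays, was at 7.55, 9.22, 11.2, 9.09 and 5.39 UMIs per 10000 against 0.0382 to 0.206 (log2 fold change 6.44, SE 0.31, adjusted p = 2.9e-92), and the interleukin-1 receptor *Il1r1* at 0.214, 1.74, 0.798, 1.92 and 2.76 (log2 fold change 5.96, SE 0.33, adjusted p = 8.5e-69). The adhesion molecules of activated endothelium *Selp* and *Sele* had 0 UMIs in 283 nuclei, which allows up to 1.06% of nuclei each. In the leukocyte list 4 of 7 tested genes were higher (5 of 13 with no filter). Antigen presentation and interferon genes were higher in 6 of 7 tested (9 of 14 with no filter), such as *B2m*, the light chain of class I molecules, at 4.84, 7.68, 3.99, 3.07 and 7.95 UMIs per 10000 (log2 fold change 2.15, SE 0.28, adjusted p = 6.5e-13), with *Ifitm3*, *Bst2* and *Ifi27* at log2 fold changes of 5.20, 5.31 and 1.91, the last with an adjusted p of 0.069 without the rat block. Of G protein-coupled receptors and their partners, 6 of 10 tested were higher (9 of 19 with no filter), including the sphingosine 1-phosphate receptor *S1pr1* (log2 fold change 2.72, SE 0.34, adjusted p = 5.8e-14, and adjusted p = 0.062 after subtraction of free RNA) and *Calcrl* with its partner *Ramp2*, which form the adrenomedullin receptor, at log2 fold changes of 2.25 and 2.85.

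The basement membrane list had 18 of 20 tested genes higher and none lower (18 of 21 with no filter). Its 21 genes summed to 31.6, 38.9, 51.1, 53.4 and 38.3 UMIs per 10000 in endothelial nuclei of rats 1 to 5, and to 47.7 and 46.5 in mural-like nuclei of rats 2 and 5. *Col4a3* and *Col4a4*, chains of type IV collagen, were at 4.42, 3.21, 4.79, 9.73 and 5.98 and 1.21, 1.8, 1.6, 3.71 and 2.69 UMIs per 10000 in rats 1 to 5 (log2 fold change 5.92, SE 0.30, adjusted p = 1.1e-84 for *Col4a3*). *Col4a1*, a chain of the type IV collagen of all basement membranes, averaged 2.21 ± 1.44 against 0.138 (log2 fold change 4.15, SE 0.27, adjusted p = 1.1e-50), and *Lama4*, the laminin chain typical of endothelium, 3.18 ± 0.914 (log2 fold change 3.39, SE 0.27, adjusted p = 1.4e-34). The matrix protein gene *Sparc* was at 6.12, 8.84, 8.78, 3.58 and 4.93 UMIs per 10000 (log2 fold change 2.61, SE 0.28, adjusted p = 1.9e-19), and the laminin and collagen receptor genes *Itga6* and *Itga1* had log2 fold changes of 3.11 and 5.89. Caveolae genes were higher in 10 of 11 tested (9 of 12 with no filter), with log2 fold changes of 3.20, 4.77 and 3.90 for *Cav1*, *Cavin1* and *Cavin2*, at means of 1.01 ± 0.342, 1.57 ± 1.40 and 3.02 ± 4.56 UMIs per 10000. The means of *Cavin1* and *Cavin2* rested on rat 3, and were 0.965 and 0.987 over the other 4 rats. *Plvap*, which marks fenestrated and leaky vessels, had 1 UMI in all 283 nuclei, or 0.353% of nuclei, against 0.758% of the other nuclei. The exact 95% interval of 0.00895 to 1.95% covers counting error only, and whether these shares differed was not tested.

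Of the hormone receptors, the receptors for insulin and insulin-like growth factor were higher, while the incretin receptor *Glp1r* had 1 UMI in all. *Igf1r* (ENSRNOG00000014187), the insulin-like growth factor 1 receptor, was at 36.8, 19.6, 23.9, 26.2 and 23.7 UMIs per 10000 in rats 1 to 5 and 1.97 to 3.93 in the other nuclei (log2 fold change 3.22, SE 0.28, adjusted p = 1.5e-28). It was detected in 78.4% of endothelial, 31.0% of other and 27.0% of astrocyte-like nuclei (56.5% against 10.4% after thinning). *Insr*, the insulin receptor, was at 4.91, 3.46, 2.39, 4.48 and 3.02 UMIs per 10000 (log2 fold change 2.20, SE 0.26, adjusted p = 3.6e-15). The leptin receptor *Lepr*, the mineralocorticoid receptor *Nr3c2* and *Calcrl* were also higher, with log2 fold changes of 1.55, 0.97 and 2.25. Without rat 1 or 2 the adjusted p of *Lepr* was 0.088 or 0.16, and without rat 2 or 4 that of *Nr3c2* was 0.22 or 0.061. Both also failed to pass with DESeq2 (0.080 and 0.11), with the stricter rule of 3 of the 4 genes and 5 UMIs (0.12 and 0.11) and after subtraction of free RNA (0.20 and 0.28). Neither passed without the rat block (0.061 and 0.094) or in the nuclei without a mural UMI (0.24 and 0.26). *Nr3c2* did not pass with scaling over all genes (0.16). The glucocorticoid receptor *Nr3c1* missed the threshold (log2 fold change 0.74, SE 0.29, adjusted p = 0.051) and the thyroid hormone receptor *Thra* averaged 1.55 ± 0.379 against 1.31 UMIs per 10000 (log2 fold change 0.23, SE 0.28, adjusted p = 0.64). *Glp1r*, the receptor for glucagon-like peptide-1 that the study is about, had 1 UMI in 1 of 283 endothelial nuclei (0.353%, exact 95% interval 0.00895 to 1.95%), against 0.312% of the other nuclei, which had a lower median depth. The interval pools nuclei over rats and covers counting error only. In total 5 of 16 tested receptors were higher and none lower, and with no filter 5 of 22.

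Immediate early genes, which cells switch on quickly after a stimulus, and glucocorticoid response genes were raised in part. *Klf4*, a flow-responsive factor, was at 0.855, 0.630, 2.39, 0.128 and 0.723 UMIs per 10000 (log2 fold change 5.51, SE 0.43, adjusted p = 1.6e-35), and *Ier2* and *Btg2* had log2 fold changes of 4.01 and 3.46. *Zbtb16*, a glucocorticoid response gene, was at 1.85, 3.61, 1.6, 9.73 and 7.03 UMIs per 10000 (log2 fold change 1.5, SE 0.27, adjusted p = 6.2e-07), while *Fkbp5*, another such gene, did not pass (log2 fold change -0.10, SE 0.40, adjusted p = 0.92). *Zbtb16* did not pass without the rat block (adjusted p = 0.098) or in the nuclei without a mural UMI (adjusted p = 0.24). *Fos* had 0 UMIs in 283 endothelial nuclei, which allows up to 1.06%, against 0.953% of other nuclei. Of 22 genes listed 12 were tested and 6 were higher, and with no filter 9 of 21 were higher and 1 lower.

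**Figure D3:**
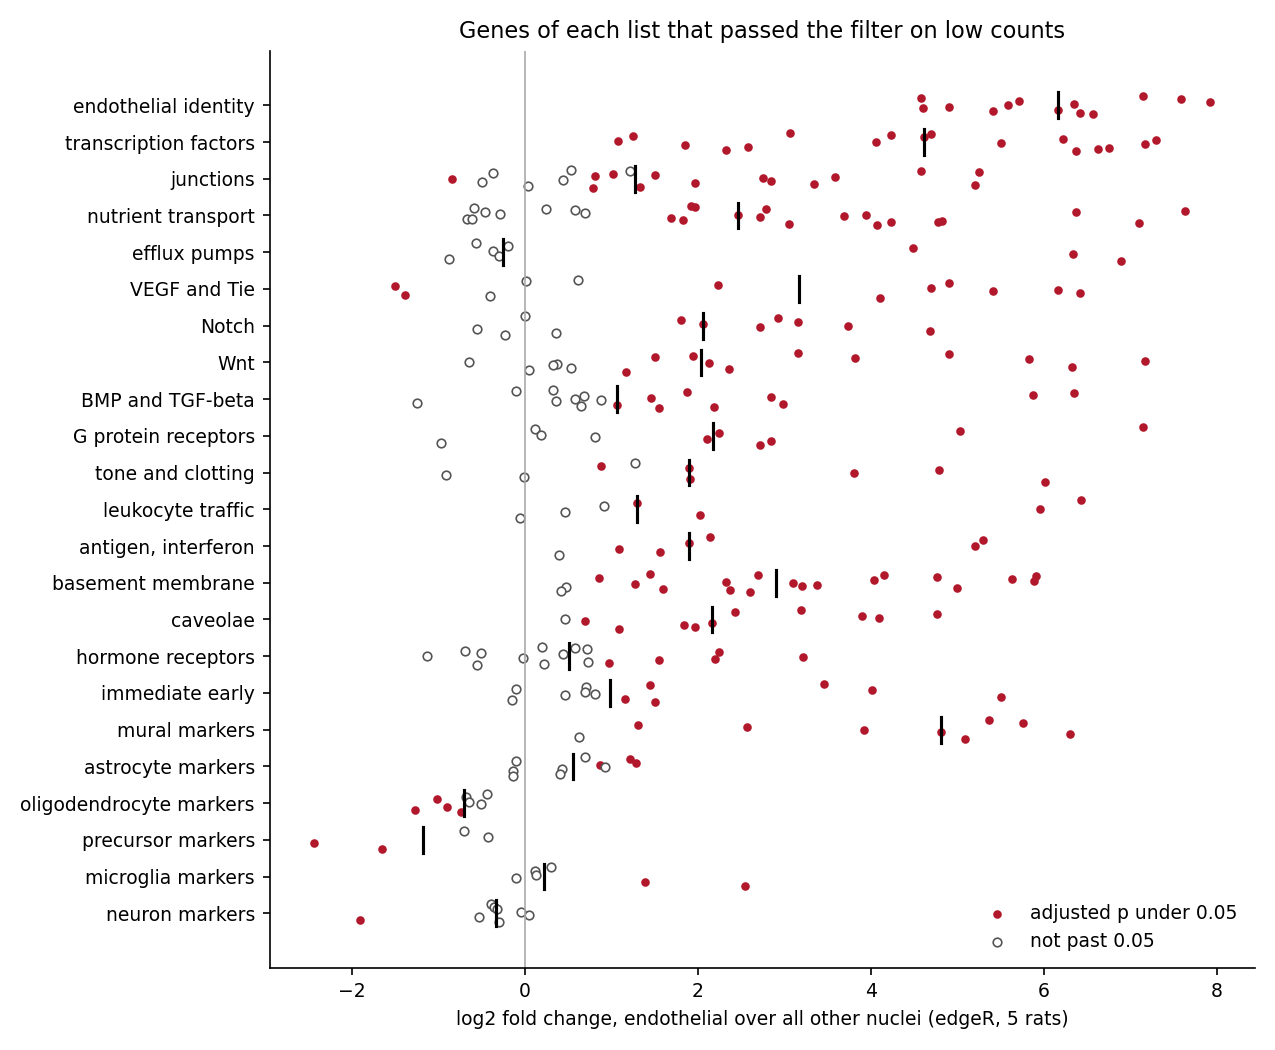
Log2 fold changes of endothelial over all other nuclei for the genes of each list that passed the filter on low counts, 1 point per gene, filled where the adjusted p was under 0.05; the black line is the median of the list. Identity genes lie at a median of 6.17 and mural markers at 4.82, while oligodendrocyte markers lie at -0.70.

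Arterial, capillary and venous genes were all detected in endothelial nuclei. The 9 capillary genes summed to 27.7, 26.9, 63.8, 26.6 and 26.7 UMIs per 10000 in rats 1 to 5, with rat 3 far above the other 4. The 17 arterial genes summed to 6.98, 7.87, 14.4, 12.2 and 8.02, and the 13 venous genes found in the files to 5.34, 7.64, 6.38, 9.47 and 6.77 UMIs per 10000. In mural-like nuclei of rats 2 and 5 the venous genes summed to 7.07 and 6.29 UMIs per 10000, near the endothelial sums of those rats. The arterial genes summed there to 4.24 and 6.92, and the capillary genes to 8.13 and 8.18. Capillary genes were detected in 265 of 283 nuclei, arterial genes in 200 and venous genes in 198. Both an arterial and a venous UMI were seen in 149 nuclei, whose median depth was 3157 UMIs, 51 had an arterial without a venous UMI, 49 the reverse, and 8 had no UMI of the 3 lists. At least 2 arterial and 2 venous UMIs were seen in 68 nuclei. The other nuclei held means of 1.42 arterial and 2.19 venous UMIs per 10000, so single UMIs do not assign a nucleus to a vessel type. Of the capillary list 8 of 9 genes tested were higher, as were 8 of 9 arterial and 4 of 6 venous genes. *Adgrg6* of the venous list was lower (log2 fold change -1.47, SE 0.31, adjusted p = 3.6e-05). Without the rat block its log2 fold change was -1.48 and its call was lost (adjusted p = 0.064). With no filter 8 of 9 capillary, 13 of 17 arterial and 9 of 13 venous genes were higher. *Efnb2*, the arterial ephrin, was at 1.14, 0.611, 2.39, 1.02 and 0.854 UMIs per 10000 (log2 fold change 2.12, SE 0.30, adjusted p = 4.6e-11), and *Nr2f2*, the venous factor COUP-TFII, at 0.570, 0.917, 1.6, 1.92 and 1.05 (log2 fold change 2.59, SE 0.30, adjusted p = 3.8e-16). The *Nr2f2* call was lost in the nuclei without a mural UMI (adjusted p = 0.68) and without nuclei holding markers of another type (adjusted p = 0.63). *Nr2f2* and *Mgp* are also expressed by mural cells, and their levels in mural-like nuclei of rats 2 and 5 were 4.60 and 4.40 and 2.12 and 4.40 UMIs per 10000, against 1.21 ± 0.542 and 1.25 ± 1.08 in endothelial nuclei.

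Markers of neighbouring vessel cells were also raised in the endothelial nuclei. The 12 mural markers summed to 7.12, 17.1, 19.2, 34.6 and 20.2 UMIs per 10000 in rats 1 to 5, against 0.534 to 1.13 in the other nuclei, and 8 of 9 tested were higher (10 of 12 with no filter). *Rgs5*, a pericyte gene, was at 2.28, 3.84, 3.19, 6.91 and 4.99 UMIs per 10000 (log2 fold change 6.31, SE 0.30, adjusted p = 9e-94), and *Pdgfrb*, the pericyte receptor for platelet-derived growth factor, at 0.855, 1.57, 0.798, 2.69 and 1.58 (log2 fold change 4.82, SE 0.30, adjusted p = 1.7e-54). At least 3 mural UMIs were counted in 79 of 283 nuclei and none in 140. Of the smooth muscle markers, *Cnn1* was at 0 in all and *Tagln* did not pass, while *Myh11* was higher, as was *Acta2* with no filter. In the 140 nuclei without a mural UMI, 402 genes were higher and 1093 lower than in the other nuclei, at a median log2 fold change of -0.59 over all genes. In that fit 18 of the genes named here lost their call against all other nuclei, *F11r*, *Slc3a2*, *Tjp1* and *Mgp* among them. All 5 rats entered it, with 13, 90, 2, 9 and 26 of the 140 nuclei in rats 1 to 5. The 140 nuclei were also shallower, at a median of 1907.5 UMIs against 3428 in the 79. The levels of *Slc2a1*, *Ptprb*, *Abcg2* and *Erg* in those 140 nuclei were 3.77, 5.43, 4.52 and 2.69 UMIs per 10000, against 5.43, 6.47, 4.51 and 2.39 in the 79. The part of pericyte RNA in the other results was not tested.

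Astrocyte markers summed to 13.9, 30.4, 17.6, 13.3 and 17.5 UMIs per 10000 in endothelial nuclei of rats 1 to 5 and to 6.25 to 17.8 in the other nuclei, and 3 of 10 were higher, with and without a filter. These were *Gfap* (log2 fold change 1.29, SE 0.29, adjusted p = 0.00011), the water channel *Aqp4* (log2 fold change 1.21, SE 0.28, adjusted p = 0.0002) and the connexin *Gja1* (log2 fold change 0.87, SE 0.27, adjusted p = 0.0088), and all 3 calls were lost without the rat block and in the nuclei without a mural UMI. Without rat 2, 4 or 5 the adjusted p of *Gja1* was 0.16, 0.15 or 0.15, with DESeq2 0.23 and with scaling over all genes 0.25. The rule left nuclei with more *Mog*, any *Cx3cr1* or *Pdgfra*, or more than 1 UMI of *Nyap2* among the other nuclei. Lower oligodendrocyte, precursor and neuronal markers were therefore in part set by the choice of nuclei. Oligodendrocyte markers summed to 34.4 to 110 UMIs per 10000 against 69.6 to 162, with 4 of 8 lower, with and without a filter. Neuronal markers summed to 6.66 to 23.6 against 24.2 to 39.3 UMIs per 10000, and 1 of 8, the synaptic vesicle gene *Syt1*, was lower (log2 fold change -1.90, SE 0.29, adjusted p = 1.1e-09), also 1 of 8 with no filter. Microglial markers summed to 0.986 to 6.15 against 0.981 to 2.37, with 2 of 6 higher (2 of 9 with no filter), and fibroblast markers to 0.427 to 1.93 against 0.456 to 1.11, with 2 of 3 tested of 8 listed higher and 1 lower (4 and 1 of 7 with no filter). Blood markers summed to 1.79 to 12.2 against 0.327 to 4.90, and of 6 tested (9 with no filter) 3 were higher, all hemoglobin genes, and 1 was lower, the heme synthesis gene *Alas2* (log2 fold change -2.05, SE 0.65, adjusted p = 0.0095). *Alas2* did not pass without rat 5 (adjusted p = 0.16), with DESeq2 (0.077), without the rat block (0.12) or without nuclei holding markers of another type (0.10). *Hba-a1* and *Hbb* had log2 fold changes of 1.89 and 1.63. *Hbb* did not pass without rat 5 (adjusted p = 0.45), with DESeq2 (0.30) or without the rat block (0.10). It also did not pass after subtraction of free RNA (0.052), in the nuclei without a mural UMI (0.89) or without nuclei holding markers of another type (0.58). *Hba-a1* did not pass with DESeq2 (adjusted p = 0.17), without the rat block (0.24) or in the nuclei without a mural UMI (0.21). Ependymal markers were near 0, with 4 of 5 at 0 UMIs. None of them passed the filter, and with no filter 1 of 5, *Kl*, was called higher. Of the precursor markers 2 of 4 were lower (2 of 5 with no filter), *Tnr* at a log2 fold change of -2.43.

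**Figure D4:**
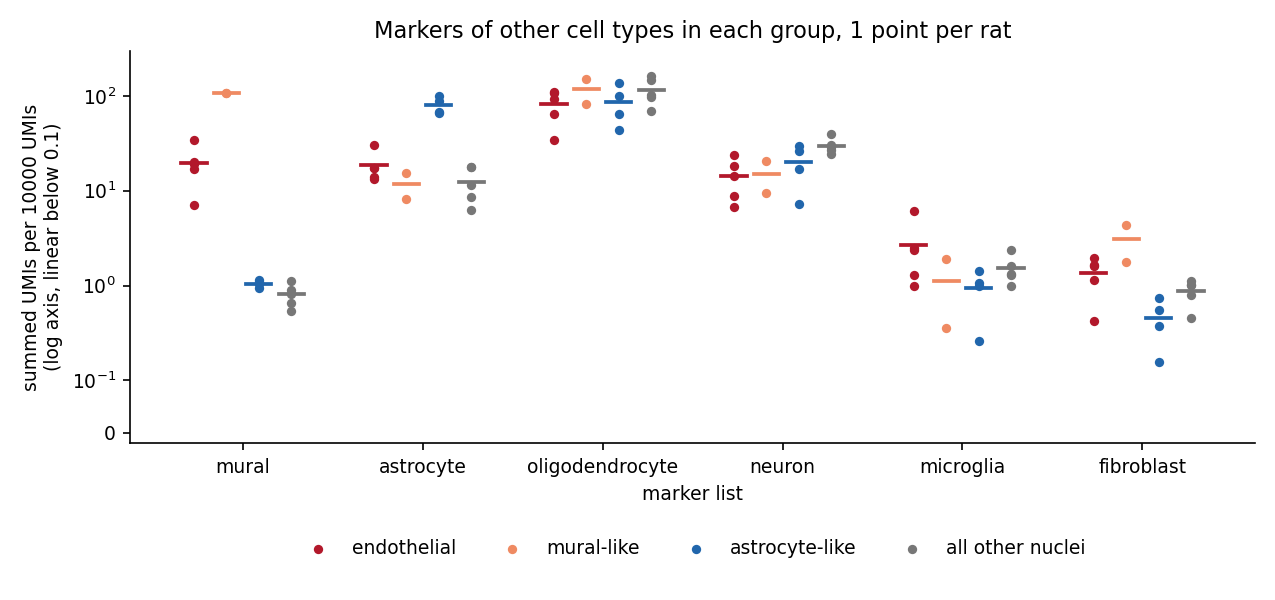
Summed UMIs per 10000 of 6 marker lists (logarithmic axis, linear below 0.1) in endothelial, mural-like, astrocyte-like and all other nuclei, 1 point per rat with the mean as a line. Mural markers in endothelial nuclei (7.12 to 34.6) lie between those of the mural-like nuclei (108 in rats 2 and 5) and the rest (0.534 to 1.13). The mural and astrocyte lists include the genes that chose the mural-like and astrocyte-like nuclei.

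To set endothelial nuclei beside the cells that touch them, mural-like and astrocyte-like nuclei were chosen by 4 genes each and the same exclusions. Both groups were also limited to nuclei with at most 1 UMI summed over *Cldn5*, *Flt1*, *Slco1a4* and *Adgrl4*. The 17 nuclei that passed both gates were in neither group. Low levels of endothelial genes in these 2 groups were therefore in part set by the choice of nuclei. There were 41 mural-like nuclei, of which rats 2, 4 and 5 held 17, 9 and 14, so only rats 2 and 5 reached the 10 nuclei required for a sum and no test was fitted. In those 2 rats *Emcn*, *Ocln*, *Cgnl1*, *Tfrc* and *Vwf* were at 0 in mural-like nuclei, where 3 counts would have been 1.06 UMIs per 10000 in rat 2 and 1.89 in rat 5. The gate genes *Rgs5* and *Abcc9* were at 21.6 and 23.3 and 21.2 and 18.2 UMIs per 10000 in mural-like nuclei, and *Atp13a5*, a pericyte gene outside the gate, at 40.0 and 25.8, against 0.570, 4.68, 4.79, 9.60 and 6.97 in endothelial nuclei of rats 1 to 5. Endothelial *Igf1r* was above its mural-like levels of 1.41 and 1.26 UMIs per 10000, and endothelial *Col4a4* below its mural-like levels of 6.72 and 8.80. No difference from mural-like nuclei was tested.

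Of the 2652 astrocyte-like nuclei, 147 were in rat 3, which had fewer than 10 endothelial nuclei and was left out of this comparison. Against those of the other 4 rats, 840 of 8724 genes (9.63%) were higher in endothelial nuclei and 807 (9.25%) were lower. Without rat 5, 728 were higher and 524 lower. Several barrier carriers were also detected in astrocyte-like nuclei. *Slco1c1* had a log2 fold change of 4.90 and *Slc2a1* of 3.11, with astrocyte-like levels of 0.298 to 0.617 and 0.574 to 0.626 UMIs per 10000. *Igf1r* was at 36.8, 19.6, 26.2 and 23.7 UMIs per 10000 in endothelial and 1.94 to 3.46 in astrocyte-like nuclei of rats 1, 2, 4 and 5 (log2 fold change 3.18, SE 0.24, adjusted p = 3.2e-07). The most raised genes by the naming rule were *Ccm2l*, *Erg*, *Cyyr1*, *Nxpe5l1*, *Zfp366*, *Lef1*, *She* and *Galnt15*. *Erg*, which passed the filter here, was at 3.13, 2.08, 4.61 and 3.48 against 0 to 0.0103 UMIs per 10000 (log2 fold change 8.54, SE 0.36, adjusted p = 2.3e-09), and *Ccm2l*, a partner gene of the cerebral cavernous malformation proteins, had 53 UMIs in endothelial and 0 in astrocyte-like nuclei.

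With no filter 1147 of 19557 genes (5.86%) were higher and 980 (5.01%) lower than in astrocyte-like nuclei. The identity list was higher in all 16 genes tested (18 of 19 with no filter), the transcription factors in 14 of 16 (21 of 25) and nutrient transport in 15 of 23 (19 of 28). Junction genes were higher in 10 of 18 with *Magi1* lower (12 and 1 of 24 with no filter). Efflux genes were higher in 3 of 8 with the cholesterol exporter *Abca1* lower, with and without a filter. In the VEGF and Tie list 7 of 10 were higher and 3 lower (9 and 2 of 14 with no filter), *Vegfa* among them (log2 fold change -3.07, SE 0.32, adjusted p = 5.8e-06). Of these calls, *Nrp2* was lost without rat 2 or 4 (adjusted p = 0.18 or 0.11) and *Nrp1* without rat 2 or 5 (adjusted p = 0.13 or 0.051). *Nrp2* was also lost with DESeq2 (0.076), scaling over all genes (0.054), subtraction of free RNA (0.10) and mural-like sums in the fit (0.069). It was lost as well without the rat block (0.15) and without mural UMIs (0.15). *Nrp1* was also lost after subtraction of free RNA (0.065) and without the rat block (0.12). Wnt genes were higher in 9 of 16 and lower in 2 (10 and 2 of 17 with no filter). Notch genes were higher in 3 of 7 and lower in 2 (5 and 2 of 15). BMP and TGF-beta genes were higher in 11 of 18 and lower in 2 (11 and 3 of 19). *S1pr1* did not pass the test against astrocyte-like nuclei (log2 fold change 0.51, SE 0.27, adjusted p = 0.25). Astrocyte markers outside the gate were lower in 4 of 6 (5 of 6 with no filter), *Slc4a4* among them (log2 fold change -3.31, SE 0.34, adjusted p = 6.6e-06), and all 9 mural markers tested were higher (10 of 12 with no filter).

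Genes lower in endothelial than astrocyte-like nuclei included metabolic and transmitter carriers of glia. *Slc6a11*, the GABA transporter GAT3, was at 0.0712, 0.516, 1.28 and 0.723 UMIs per 10000 in endothelial nuclei of rats 1, 2, 4 and 5 (log2 fold change -4.00, SE 0.34, adjusted p = 1.1e-06). The water and glycerol channel *Aqp9* (log2 fold change -3.82, SE 0.47, adjusted p = 2.9e-05), the clock factor *Npas2* (log2 fold change -3.74, SE 0.41, adjusted p = 1.1e-05) and the thioesterase *Acot11* (log2 fold change -4.50, SE 0.48, adjusted p = 7.7e-06) had 7, 15 and 3 endothelial UMIs, and *Il12a*, *Dnah5*, *Adamts17* and *Efs* 1 to 3 UMIs each. Against all other nuclei, the naming rule gave as lower genes *Scube3*, *Topaz1*, *Mms22l*, *Cyp3a9*, *Cct6b*, *Brdt* and *Sema3a*, and all 7 had 0 endothelial UMIs, so that their fitted folds are no measure of size. A floor of 3 counts over all endothelial nuclei was set against the level of the other nuclei pooled over rats. It lay 4.99-fold below that level for *Scube3*, 4.82-fold for *Topaz1* and 3.03-fold for *Sema3a*, a guidance factor of neurons. At the pooled level, 9.08 to 15.0 UMIs of each of the 7 genes would have been counted. The pooled level does not weight the rats by their endothelial UMIs. Rat 2 gave most of these UMIs. In its other nuclei, *Scube3* and *Topaz1* were lower than in those of rats 4 and 5. The folds are therefore no lower limits for a comparison within rats. All 7 calls were lost without nuclei holding markers of another type. Those of *Mms22l*, *Cyp3a9*, *Cct6b* and *Brdt* were also lost after subtraction of free RNA, that of *Scube3* without the rat block, and that of *Sema3a* with DESeq2 and without rat 2 (adjusted p = 0.096).

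Besides the genes above, the naming rule gave *Prom1*, a membrane protein of progenitors and brain endothelium, at 4.84, 6.53, 7.18, 9.86 and 8.28 UMIs per 10000 (log2 fold change 7.09, SE 0.33, adjusted p = 1.9e-101), and *Nxpe5l1* at 0.427, 0.554, 1.6, 2.18 and 1.71, the most raised gene by fold (log2 fold change 9.01, SE 0.47, adjusted p = 2.8e-80). *Car4*, a carbonic anhydrase on the luminal face of capillaries, listed as *Ca4* in the files, was at 1.42, 1.85, 3.99, 1.54 and 2.10 UMIs per 10000 (log2 fold change 6.55, SE 0.32, adjusted p = 5.3e-89). *Nostrin*, which regulates nitric oxide synthase, averaged 2.27 ± 1.0 (log2 fold change 6.42, SE 0.30, adjusted p = 5.7e-100), *Ushbp1* 1.08 ± 0.222, and *Akr1c15*, an aldo-keto reductase, 2.69 ± 0.636 UMIs per 10000 (log2 fold changes 6.57 and 7.08). *Galnt15*, a glycosyltransferase, had a log2 fold change of 6.99 from 57 UMIs. The naming rule required a higher level in all 5 rats, also where rat 3 had under 3 counts.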

How the data were processed

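The 5 snRNA-seq libraries of VTA (1 condition, label saline) were deposited by the authors as raw, unfiltered UMI counts of 32883 genes per barcode. The processing notes in the labels name Cell Ranger 8.0.1, the file headers name the Cell Ranger 4 software, and the genome build is not given in the sources used here. The background correction, doublet removal and integration that the study's methods describe were not part of these counts. Genes keep the names of the files except *Car4*, which is *Ca4* there, and *Hspg2*, which has only an identifier there. Another 14 listed names were not found.

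Endothelial nuclei were chosen by the thresholds given above, and the members and gene lists were chosen with earlier results of these data known. Counts were summed per rat and group with at least 10 nuclei (9 in rat 3 entered only the comparison with all other nuclei) and compared by edgeR 4.0.16 (glmQLFit and glmQLFTest, R 4.3.3), with filterByExpr and a Benjamini-Hochberg adjusted p under 0.05 over all genes tested. The labels name no animal. Each library was taken as 1 rat from the study's methods. The test pools its estimate of the spread over genes, so p-values measure a spread between these libraries that genes share. Against all other nuclei, a gene's own spread between rats had little weight. A small p-value there does not mean that the rats were alike, as with *Jag1* at 0.142 to 8.78 UMIs per 10000. The rat was a block because both sums of a comparison come from the same animal, and sums of the same rat deviated together, with correlations across genes of 0.143 to 0.379 against all other nuclei and 0.117 to 0.348 against astrocyte-like nuclei. TMM factors were computed on genes with at least 5 counts expected in the smallest sum, a choice made after counts had been seen. TMM over all genes was run as an alternative, and no result given here decides between these scalings. The fit planned for 3 groups was made without mural-like nuclei, since only 2 rats had 10 of them. Levels are UMIs per 10000 UMIs of a group in a rat, not corrected for gene length. The floor is 3 counts, which also gives the limit printed for a count of 0. Intervals for counts above 0 are exact (Clopper-Pearson, 95%) and cover counting error only. Shares were also computed with each nucleus thinned to 600 UMIs. Genes were named from the lists and, by fold among called genes that moved in 1 direction in all rats, as the 20 most raised with at least 20 UMIs and the 8 most reduced by fitted fold against all other nuclei, and the 8 in each direction against astrocyte-like nuclei. Some genes that this rule or the lists gave are not reported here. Promoters are from RefSeq (GRCr8). Alternatives were DESeq2 1.42.0, other scaling, filters, doublet removal (Scrublet in scanpy 1.11.5), gates, subtraction of free RNA, thinned sums and leaving out each rat.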

Additional observations from a re-analysis of the deposited data

Results flagged for a closer look

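In 24 of 126 levels (19.0%) 1 of the 5 rats lay far from the other 4 by Dixon's test at the 95% level. In 20 of the 24 it was rat 3, whose 9 endothelial nuclei make 1 UMI worth 0.798 UMIs per 10000. Chance flags about 1 in 20 groups only where the 5 values have the same spread. Rat 3 had 12530 endothelial UMIs against 78105 to 523579 in the other rats, so the 19.0% cannot be set against that rate. The summed capillary genes were at 63.8 UMIs per 10000 in rat 3, against 26.6 to 27.7 in the other rats. Of single genes in rat 3, *Tfrc* was at 25.5 UMIs per 10000, *Bmpr2* at 23.9, *Cavin2* at 11.2 and *Jag1* at 8.78. *Calcrl* and *Slc12a2* were at 6.38 each, *Kdr*, *Mfsd2a* and *Tfpi* at 5.59 each, *Car4* and *Cavin1* at 3.99 each, and *Fzd6* at 3.19. *Cav1*, *Notum*, *Slc16a1* and *Slc19a3* were at 1.596 UMIs per 10000 each. All of these were the highest of the 5 rats, while *Jag2*, *Plat* and *Vegfc* had 0 UMIs in rat 3 and were above 0 in each other rat. *Jag1* was at 0.142 to 0.512 in the other rats, so its mean over rats rested on rat 3.

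In rat 4, *Adgrf5* was at 17.9 UMIs per 10000 (6.55 to 8.61 in the other rats), *Itga1* at 4.87 (2.23 to 2.99) and *Fkbp5* at 0.768 (0 to 0.197). The astrocyte markers summed to 30.4 UMIs per 10000 in rat 2, against 13.3 to 17.6 in the other rats.

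Outside the nuclei analysed, 109 of 24616 barcodes with 5% or more mitochondrial UMIs (0.443%) met the gene parts of the rule, as did 7 of 1136 barcodes with 5000 or more genes (0.616%). Their expression was not analysed here.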

How the results depend on the processing

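Of the called genes named above, 85 of 120 against all other nuclei kept direction and call in every alternative that tested them. Against astrocyte-like nuclei 87 of 103 did. Alternatives in which a gene did not pass the filter on low counts, or whose nuclei were chosen on that gene, were not counted for it. Against all other nuclei, thinned sums tested 3575 genes and subtraction of free RNA 9425, while the main fit tested 12268. The rat block changed counts: without it 895 genes were higher and 639 lower than in all other nuclei, and 693 and 644 against astrocyte-like nuclei. Genes higher than in all other nuclei numbered 916 with DESeq2, 943 with the stricter rule (2513 lower), 593 after subtraction of free RNA and 796 in thinned sums (400 lower). Without the 195 of 283 endothelial nuclei holding markers of another type, 685 were higher and 332 lower (493 higher against astrocyte-like nuclei), without those with a mural UMI 402 were higher (411 higher and 271 lower against astrocyte-like nuclei), and in nuclei with 50 or more UMIs of the 4 genes per 10000, 756 were higher and 5258 lower at a median log2 fold change of -0.91 (1910 lower against astrocyte-like nuclei). With mural-like sums in the same fit 1270 were higher than in astrocyte-like nuclei. The cause of these changes was not tested. Leaving out each rat gave 830 to 1466 higher and 913 to 1299 lower, and 624 to 840 and 524 to 949 against astrocyte-like nuclei. Directions reversed, on the log2 scale, against all other nuclei for *Gfap* (-0.16), *Gja1* (-0.17), *Pard3* (-0.72) and *Thra* (-0.81) in the dense nuclei, and for *Jag1* (-0.070) without mural UMIs. Against astrocyte-like nuclei they reversed for *Jam3* (-1.01) in the dense nuclei, and for *Nr2f2* (-0.86) and *Slc12a2* (-1.58) without nuclei holding other markers. The share of endothelial nuclei was 1.18% at 1500 or more UMIs. Without mural UMIs arterial genes summed to 5.67 and venous genes to 4.88 UMIs per 10000. After thinning to 600 UMIs, UMIs were found in 47.0% of endothelial nuclei for *Slco1c1*, 57.2% for *Cyyr1*, 22.3% for *Emcn*, 25.1% for *Slc2a1*, 26.1% for *Abcg2*, 56.5% for *Igf1r*, 19.1% for *Erg*, 18.0% for *Rgs5* and 0% for *Plvap* and *Glp1r*. Endothelial nuclei were not tested against mural-like nuclei, a choice that followed from the minimum number of nuclei required for a sum. Alternatives for that comparison were therefore not run. The gates on mural UMIs and marker density, the top doublet scores, TMM over all genes and the fit with mural-like sums were chosen after seeing the data. In rat 3, 9 nuclei limit what is detectable.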
